A study of Saccharomyces cerevisiae with 8 samples.

Results

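The genes described here are the 58 budding yeast (Saccharomyces cerevisiae) genes whose standard name in the R64 annotation is UTP, NOP, NOC, RRP or RPF followed by a number, out of 6692 rows in the deposited table. Most of them encode ribosome assembly factors, and 7 encode subunits or cofactors of the RNA exosome, which trims rRNA precursors. The rule uses the name alone and no measured value. RNA was sequenced from wild type cells and from cells with RAD27 knocked out. RAD27 encodes the flap endonuclease that removes the flaps of Okazaki fragments. All cultures were first grown overnight in YPD, a rich medium, at 30 °C, then diluted and kept for 4 hours at either 30 or 37 °C, so a label of 37 °C means a shift of 4 hours and not steady growth. The 8 libraries form 4 groups of 2, both genotypes being sampled at both temperatures. The sources used here do not give the strain background, the construct used for the knockout or the number of clones behind it, and the labels do not state whether replicates were separate cultures. The p-values therefore measure the spread between these libraries, which may be partly technical.

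Library totals ranged from 4734266 to 5588983 counts, and 58 of 58 members had enough counts to be tested, the smallest count of a member in any library being 159. RAD27 had 479 to 533 counts in the wild type libraries and 0 counts in all 4 of the knockout. On a principal component analysis of all genes the knockout libraries at 37 °C lay apart on component 1, which held 62.8% of the variance, at 32.2 and 41.8, with the other 6 libraries between -21.0 and -6.75. Replicates also differed most in that group, with a chi-square per degree of freedom of 8.48, against 1.84 to 3.94 in the other groups, where counting error alone gives a value near 1. Cytosolic ribosomal protein genes took 15.1% of counts at 30 °C and 11.2% at 37 °C in wild type, and 15.1% and 9.78% in the knockout. Levels below are in CPM, counts over the TMM-scaled library size in units of 1e6, and a difference passed when its adjusted p over all 5667 genes tested was under 0.05. A log2 fold change carries its standard error after ±.

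Ribosome assembly begins on the nascent precursor rRNA in the nucleolus. The UTP-A, UTP-B and UTP-C subcomplexes and the U3 snoRNP build the small subunit processome on its leading spacer and fold, modify and cleave the small subunit rRNA. A separate series of NOP, NOC, RRP and RPF proteins matures the large subunit, and the exosome trims the precursors. In yeast the genes of these factors are known as a coregulated group that responds to nutrients and stress, the Ribi regulon, and their promoters often carry the elements PAC, bound by the repressors Tod6 and Dot6, and RRPE, bound by Stb3.

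Those promoter elements were present in most members. PAC was searched as GATGAG and RRPE as AAAAATTT, on both strands, in the 300 bases before each start codon, in the RefSeq R64 genome. PAC was found upstream of 48 of 58 members (82.8%, Wilson 95% interval 71.1 to 90.4%) and of 19.0% of the 5530 genes tested that had such a window, the members among them. RRPE was found in 44 members (75.9%, interval 63.5 to 85.0%) and in 16.0% of all windows. Both were found in 37 members (63.8%) against 5.99% of all windows, and 3 members, RRP45, RRP46 and UTP22, held neither of these spellings. By comparison, 11.6% of the 138 ribosomal protein genes held PAC and 13.8% held RRPE. The median distance from a motif to the start codon, counted from its base nearest the codon, was 114 bases for PAC and 127 bases for RRPE. Matches may overlap, as in repeated PAC, and a match describes letters only, not binding.

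The stretches below run from 210 to 61 bases before the start codon, on the strand of the gene, and capitals mark PAC (GATGAG or its reverse complement CTCATC) and RRPE (AAAAATTT or AAATTTTT). They were picked because the results below turn on these genes: UTP10, UTP18, RRP5, NOP56, NOP7 and NOC2 were each among the most changed members or the most abundant of a class, and UTP22 and RRP46 lacked both motifs as spelled here. The RRP46 stretch does hold GAAAATTT, a variant of RRPE that is not capitalized, so its lack of RRPE depends on the spelling.
UTP10 (chrX:217370-217519, minus strand): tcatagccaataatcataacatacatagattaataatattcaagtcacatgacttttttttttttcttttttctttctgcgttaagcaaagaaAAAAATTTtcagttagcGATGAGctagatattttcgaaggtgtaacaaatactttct
UTP18 (chrX:312767-312916, minus strand): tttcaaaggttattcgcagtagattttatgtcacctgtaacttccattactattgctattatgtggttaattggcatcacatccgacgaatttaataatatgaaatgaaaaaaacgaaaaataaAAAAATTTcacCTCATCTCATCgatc
RRP5 (chrXIII:731184-731333, minus strand): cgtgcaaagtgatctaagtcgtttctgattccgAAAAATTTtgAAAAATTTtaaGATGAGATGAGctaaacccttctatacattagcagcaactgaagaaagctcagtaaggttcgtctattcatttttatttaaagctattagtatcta
NOP56 (chrXII:545887-546036, plus strand): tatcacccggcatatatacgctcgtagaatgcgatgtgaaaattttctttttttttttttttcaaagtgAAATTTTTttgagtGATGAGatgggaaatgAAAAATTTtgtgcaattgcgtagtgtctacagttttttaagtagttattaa
NOP7 (chrVII:695207-695356, plus strand): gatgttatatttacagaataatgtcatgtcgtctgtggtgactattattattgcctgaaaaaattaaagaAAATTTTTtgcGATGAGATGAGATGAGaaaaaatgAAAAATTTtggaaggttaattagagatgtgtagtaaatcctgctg
NOC2 (chrXV:727302-727451, plus strand): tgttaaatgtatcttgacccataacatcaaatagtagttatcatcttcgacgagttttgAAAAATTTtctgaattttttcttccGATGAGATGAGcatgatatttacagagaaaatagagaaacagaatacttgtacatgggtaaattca
UTP22 (chrVII:662148-662297, plus strand): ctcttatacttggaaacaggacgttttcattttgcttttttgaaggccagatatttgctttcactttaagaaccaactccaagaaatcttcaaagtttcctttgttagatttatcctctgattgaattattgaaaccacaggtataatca
RRP46 (chrVII:676403-676552, minus strand): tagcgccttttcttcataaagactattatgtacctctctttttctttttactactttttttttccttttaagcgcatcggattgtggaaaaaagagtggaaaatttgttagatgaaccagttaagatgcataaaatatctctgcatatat
Within these stretches, in RRP5, UTP10, NOC2 and UTP18 the RRPE lay farther from the start codon than the PAC nearest it, and in NOP7 and NOP56 an RRPE lay on either side of PAC. PAC was repeated in RRP5, NOC2, NOP7 and UTP18.

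**Figure D1:**
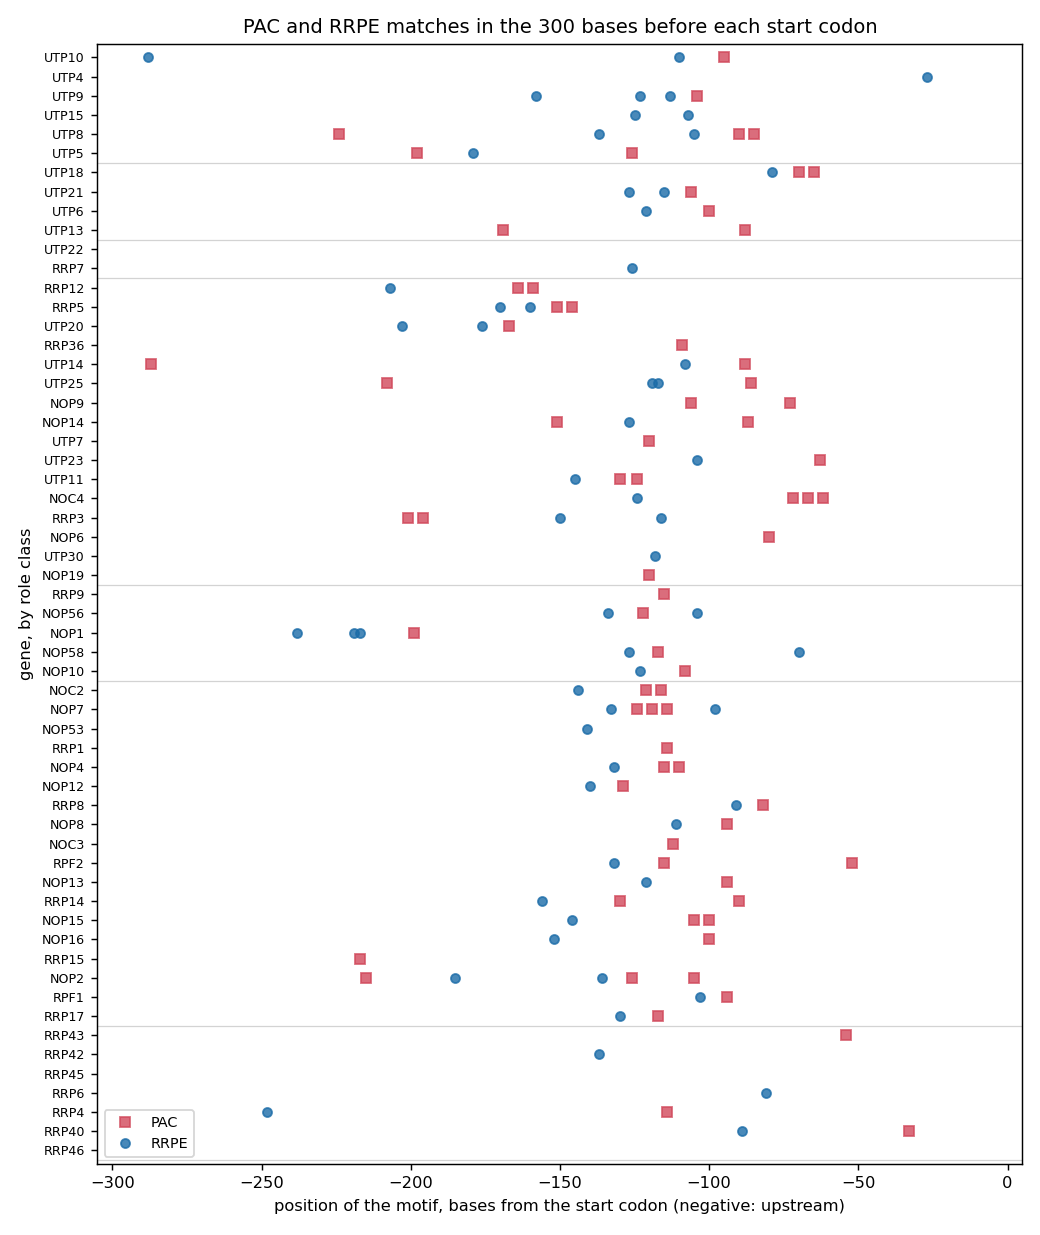
Positions of PAC (red squares) and RRPE (blue circles) matches in the 300 bases before the start codon of each of the 58 genes, grouped by role class, with bases from the start codon on the x axis. Most matches lie between 200 and 50 bases upstream, and the rows of UTP22, RRP45 and RRP46 are empty.

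Members were lower in the knockout than in wild type, most of all at 37 °C. In the knockout against wild type at 37 °C, 51 of 58 members fell and 1 rose, where 29.2% of all genes tested fell and 30.5% rose. Their median log2 fold change was -0.61, against 0.01 over all genes, and 30 members fell at least 1.5-fold, where 8.31% of all genes did. With libraries scaled by total count alone 47 fell and 2 rose. At 30 °C, 24 fell and 0 rose, against 15% and 14.6% of all genes, with a median of -0.18 against -0.003. At an unadjusted p under 0.05, 31 members were lower and 0 higher at 30 °C, and DESeq2 and limma-voom also put 0 members higher. Since libraries measure shares of RNA from whole cultures, fewer cells with a transcript and less of it per cell cannot be told apart.

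The temperature shift had a different extent in each genotype. In wild type at 37 against 30 °C, 18 members fell and 6 rose, where 17.1% of all genes fell and 15.7% rose, with a median of -0.09 against 0.005. That median is close to no change and turned positive, 0.03, when libraries were scaled by total count alone, with 7 members lower and 11 higher. Leaving out 1 wild type library also cut the counts, to 6 lower and 2 higher without replicate 1 at 37 °C, 9 and 5 without its replicate 2, 11 and 4 without replicate 1 at 30 °C and 9 and 1 without its replicate 2. In the knockout 47 fell and 0 rose, against 28.2% and 30.9% of all genes, and the median was -0.46 against 0.04. Scaling by total count alone shifted the all-gene median by 0.24 in that comparison and gave 31 members lower and 6 higher. At an unadjusted p under 0.05 there were 48 lower and 1 higher (RRP46), and DESeq2 and limma-voom put 0 higher. The difference between these responses, knockout minus wild type, called the interaction here, passed in 32 members, all of them more negative in the knockout, and in 0 members in the other direction. Over all genes 17.2% passed as lower and 16.4% as higher, and the median of the members was -0.35 against 0.01. At an unadjusted p under 0.05, 41 members were lower and 1 higher in the interaction, DESeq2 and limma-voom put 0 higher, and scaling by total count alone gave 24 lower and 1 higher. Each group's libraries enter more than 1 of these comparisons, so the counts are not independent of each other.

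Summed over the 58 members, the share of all counts was 1.60 ± 0.05% (SD, n = 2) in wild type at 30 °C and 1.67 ± 0.01% at 37 °C. In the knockout it was 1.34 ± 0.03% at 30 °C and 1.14 ± 0.05% at 37 °C. These shares amount to scaling by total count alone, and the ranges of wild type and knockout did not overlap at either temperature. The ribosomal protein genes, measured the same way, did not follow this order, with an equal share in both genotypes at 30 °C and a lower share at 37 °C in both. The order of the wild type groups depends on the scaling. With TMM the summed level of the members in wild type was 17282.5 and 17009.6 CPM at 30 °C and lower, 16471.2 and 16300.4 CPM, at 37 °C. In the knockout it was 14303.7 and 14018.4 CPM at 30 °C and 10520.8 and 9916.28 CPM at 37 °C.

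**Figure D2:**
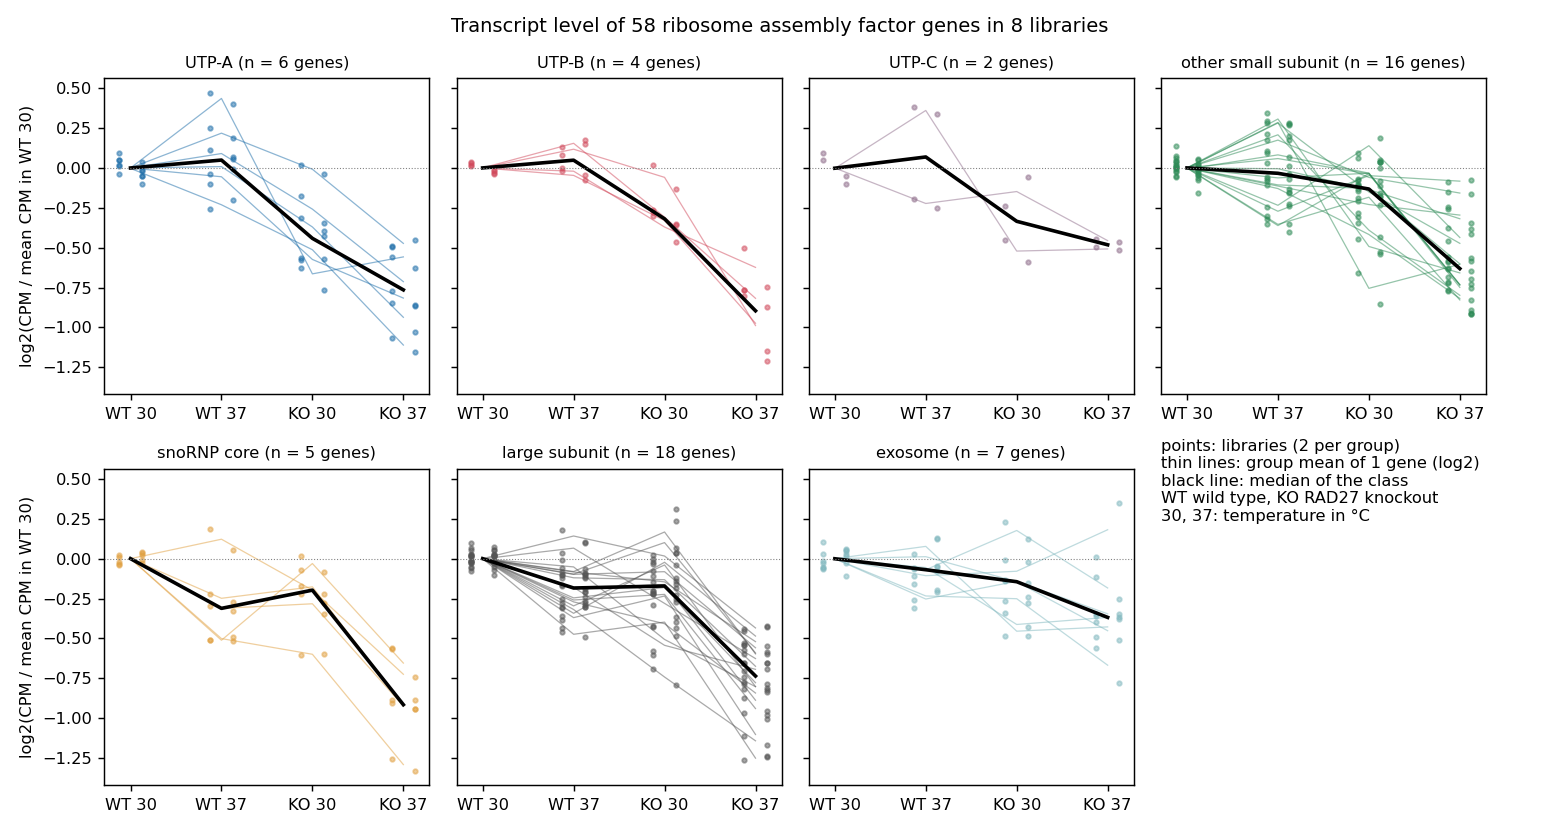
Level of each member relative to its mean in wild type at 30 °C (log2 of the CPM ratio, y axis), by group (WT wild type, KO RAD27 knockout, temperature in °C) and role class. Points are libraries, thin lines join the group means of 1 gene, and the black line is the median of the class. Class medians stay near 0 in wild type at 37 °C except for the snoRNP core and large subunit classes, and are lowest in the knockout at 37 °C in every class.

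The UTP-A subcomplex, also called t-UTP, binds the precursor rRNA first and is linked to its transcription in yeast. It has 6 members here, UTP4, UTP5, UTP8, UTP9, UTP10 and UTP15. UTP10 (YJL109C, chromosome X, 212000 to 217309, minus strand), a very long protein of helical repeats, was the most abundant of them. It gave 502 and 468 CPM at 30 °C and 672 and 639.9 CPM at 37 °C in wild type, against 328 and 286 CPM and 346 and 314 CPM in the knockout. Every knockout library lay below every wild type library, and wild type was higher at 37 than at 30 °C. UTP10 was lower in the knockout at 30 °C (-0.66 ± 0.08, adjusted p = 0.00011) and at 37 °C (-0.99 ± 0.08, adjusted p = 6.26e-07). With a trend of counts with coding length removed, these differences were -0.48 and -0.68 and still passed.

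UTP10 also showed the largest rise of any member in wild type at 37 °C (0.44 ± 0.08, adjusted p = 0.00102). That call was lost, at 0.16, when a trend of counts with coding length was removed. UTP5 gave 368 and 387 CPM at 30 °C and 448 and 429 CPM at 37 °C in wild type, against 383 and 368 CPM and 268 and 276 CPM in the knockout. It rose in wild type (0.22 ± 0.06, adjusted p = 0.0185), a call lost if either wild type library at 30 °C or replicate 1 at 37 °C was left out, and fell in the knockout (-0.46 ± 0.06, adjusted p = 4.6e-05). The genotypes overlapped at 30 °C and did not at 37 °C (-0.69 ± 0.06, adjusted p = 1.9e-06).

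UTP9 had the largest fall of the subcomplex in the knockout with temperature (-0.60 ± 0.09, adjusted p = 0.000126). It gave 223 and 195 CPM at 30 °C and 175 and 182 CPM at 37 °C in wild type, against 135 and 159 CPM and 99.8 and 94 CPM in the knockout. Both genotypes were lower at 37 °C, though the wild type difference (-0.23 ± 0.09, adjusted p = 0.0632) did not pass. In the knockout against wild type, 4 of the 6 members fell at 30 °C and 6 of 6 at 37 °C, with medians of -0.44 and -0.84. UTP15 and UTP5 did not pass at 30 °C, with -0.26 and -0.01. With temperature, 5 of 6 fell in the knockout and 0 in wild type, where 1 was lower at an unadjusted p under 0.05 and DESeq2 and limma-voom called 0 lower. The interaction passed in 5 of 6, UTP8 being the exception (-0.19 ± 0.10, adjusted p = 0.166). The interaction calls of UTP10 (-0.33) and UTP9 (-0.37) were lost in 8 and 9 of 17 other settings, among them library size alone.

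The UTP-B subcomplex, which crosslinks to the precursor rRNA and to the U3 snoRNA, is represented by UTP6, UTP13, UTP18 and UTP21. Its members had the lowest class median in the knockout against wild type at 37 °C, -0.95, and 4 of 4 fell there by at least 1.5-fold. UTP18 (YJL069C, chromosome X, 310922 to 312706, minus strand) gave 216 and 207 CPM at 30 °C and 224 and 235 CPM at 37 °C in wild type, against 214 and 193 CPM and 125 and 91.4 CPM in the knockout. Only the knockout at 37 °C was low, and its libraries were both below the other 6. UTP18 gave the largest fall of any member in the knockout with temperature (-0.92 ± 0.11, adjusted p = 1.85e-05), in the knockout against wild type at 37 °C (-1.09 ± 0.11, adjusted p = 4.52e-06) and in the interaction (-1.03 ± 0.16, adjusted p = 0.000411). At 30 °C the genotypes overlapped (-0.06 ± 0.11, adjusted p = 0.727).

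UTP21, a WD-repeat protein and the most abundant of the 4, gave 399.9 and 389 CPM at 30 °C and 432 and 446 CPM at 37 °C in wild type, against 328 and 309 CPM and 232 and 216 CPM in the knockout. Knockout libraries were below wild type ones at both temperatures, with log2 fold changes of -0.31 ± 0.07 and -0.97 ± 0.07. UTP6 and UTP13 were lower in the knockout at 37 °C, with log2 fold changes of -0.92 and -0.60. In wild type 0 of the 4 passed with temperature in either direction. At an unadjusted p under 0.05, 0 were lower and 1 was higher there, and DESeq2 and limma-voom called 0. The interaction passed in 3 of 4, UTP13 being the exception (-0.23 ± 0.12, adjusted p = 0.171).

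UTP-C joins UTP22 and RRP7 with casein kinase subunits, and its members moved apart with temperature in wild type. UTP22 gave 390.1 and 341 CPM at 30 °C and 476 and 462 CPM at 37 °C in wild type, against 267 and 243 CPM and 259 and 255 CPM in the knockout. Wild type rose at 37 °C (0.36 ± 0.08, adjusted p = 0.00274), and the knockout difference did not pass (0.01 ± 0.08, adjusted p = 0.908). The wild type rise was lost with the length trend removed (0.16) or wild type replicate 2 at 30 °C left out (0.26). RRP7 gave 167 and 156 CPM at 30 °C and 141 and 136 CPM at 37 °C in wild type, against 137 and 155 CPM and 119 and 117 CPM in the knockout, and it fell with temperature in both wild type (-0.22 ± 0.08, adjusted p = 0.044) and the knockout (-0.31 ± 0.08, adjusted p = 0.00424). The wild type call of RRP7 was lost when any 1 of the 4 wild type libraries was left out, and with library size alone, no filter on low counts, DESeq2 or the length trend removed. The knockout was lower than wild type at 37 °C for UTP22 (-0.87 ± 0.08, adjusted p = 1.23e-06) and for RRP7 (-0.23 ± 0.08, adjusted p = 0.0216). For RRP7 that call was lost with library size alone (-0.11) or without wild type replicate 1 at 37 °C (-0.23), and the knockout fall with temperature was lost with library size alone (-0.075) or without knockout replicate 2 at 30 °C (-0.21).

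The snoRNP core class holds NOP1, NOP56 and NOP58 of the box C/D particles, RRP9 of the U3 particle and NOP10 of the box H/ACA particles, which guide rRNA modification. It held the highest levels per length among all 58 members, with means over the 8 libraries of 1054 CPM per kb of coding sequence for NOP1, 869 for NOP10 and 531 for NOP56. The lowest levels per length were those of UTP6, RRP36 and NOP19, at 53.6, 58.4 and 58.9 CPM per kb. NOP1 (YDL014W, chromosome IV, 427364 to 428347, plus strand), the yeast fibrillarin and methyltransferase of box C/D particles, gave 1242 and 1304 CPM at 30 °C and 1091 and 1052 CPM at 37 °C in wild type, against 1209 and 1049 CPM and 689 and 661 CPM in the knockout. The knockout at 37 °C was lowest, with -0.74 ± 0.08, adjusted p = 4.06e-06 against 30 °C. At 30 °C the genotypes did not differ past the threshold (-0.17 ± 0.08, adjusted p = 0.102).

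NOP56, which scaffolds the box C/D particle with NOP58, gave 1169 and 1151 CPM at 30 °C and 815 and 825 CPM at 37 °C in wild type, against 765 and 767 CPM and 487 and 462 CPM in the knockout. The 4 groups did not overlap, with wild type at 30 °C highest and the knockout at 37 °C lowest. NOP56 fell in wild type with temperature (-0.50 ± 0.06, adjusted p = 6.44e-05) and in the knockout at 30 °C (-0.60 ± 0.06, adjusted p = 2.8e-05). NOP10, a very short protein, gave 183 and 188 CPM at 30 °C and 130.4 and 129.8 CPM at 37 °C in wild type, against 188 and 175 CPM and 125 and 111 CPM in the knockout. It had the largest fall of any member in wild type (-0.51 ± 0.08, adjusted p = 0.000297), fell in the knockout (-0.62 ± 0.08, adjusted p = 1.84e-05) and did not differ past the threshold between genotypes at 37 °C (-0.14 ± 0.08, adjusted p = 0.139). With the length trend removed the wild type fall was -0.29, and NOP56 then had the largest fall (-0.49).

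Across the class, 4 of 5 fell with temperature in wild type and 5 of 5 in the knockout, with medians of -0.31 and -0.64. Over all genes 17.1% and 28.2% fell. RRP9 was the exception in wild type (0.12 ± 0.09, adjusted p = 0.331). The wild type call of NOP1 (-0.25) was lost when any 1 of the 4 wild type libraries was left out. It was also lost with library size alone (-0.12) and with the length trend removed (-0.19). Between genotypes 2 of 5 were lower in the knockout at 30 °C, NOP56 and NOP58, and 4 of 5 at 37 °C. The interaction passed in NOP1, NOP58 and RRP9, with RRP9 at -0.64 ± 0.13, adjusted p = 0.00299. The call of NOP58 in the interaction (-0.33) was lost with library size alone and if replicate 1 of wild type at either temperature or of the knockout at 30 °C was left out.

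The remaining small subunit factors are 16 genes for helicases, RNA-binding and scaffold proteins of the processome and of later precursors. RRP5, a long RNA-binding protein needed for both subunits, was the most abundant. RRP5 (YMR229C, chromosome XIII, 725934 to 731123, minus strand) gave 835 and 786 CPM at 30 °C and 1029.5 and 975 CPM at 37 °C in wild type, against 596 and 557 CPM and 538 and 490.0 CPM in the knockout. Wild type rose at 37 °C and both knockout groups lay below both wild type groups. RRP5 was lower in the knockout at 30 °C (-0.49 ± 0.07, adjusted p = 0.000374) and 37 °C (-0.96 ± 0.07, adjusted p = 3.58e-07), and its interaction passed (-0.47 ± 0.10, adjusted p = 0.00386). With the length trend removed the genotype difference of RRP5 was -0.31 at 30 °C and -0.66 at 37 °C, and both still passed.

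UTP20 (YBL004W, chromosome II, 227636 to 235117, plus strand), a helical-repeat protein and the longest member, gave 538 and 485 CPM at 30 °C and 628 and 618 CPM at 37 °C in wild type, against 324 and 284 CPM and 331 and 341 CPM in the knockout. It had the largest fall of any member in the knockout at 30 °C (-0.75 ± 0.08, adjusted p = 2.89e-05) and was also lower at 37 °C (-0.89 ± 0.08, adjusted p = 1.08e-06). With the length trend removed it stood at -0.50 at both temperatures and still passed, and NOC2 then had the largest fall at 30 °C (-0.69). Unlike most members it did not fall with temperature in the knockout (0.15 ± 0.08, adjusted p = 0.12). RRP12, a helical-repeat protein that takes part in export of the precursors, gave 637 and 602 CPM at 30 °C and 719 and 712 CPM at 37 °C in wild type, against 487 and 459 CPM and 386 and 329 CPM in the knockout. It was the member with the second largest fall in the knockout at 37 °C (-1.002 ± 0.08, adjusted p = 5.32e-07). With the length trend removed RRP12 stood at -0.78 there and lost that rank, behind UTP6 (-0.96) and RRP36 (-0.93) among others.

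The rises of RRP5 (0.31 ± 0.07, adjusted p = 0.00541), UTP20 (0.29 ± 0.08, adjusted p = 0.0114) and UTP25 (0.28 ± 0.08, adjusted p = 0.0146) in wild type went against most called members. With the length trend removed RRP5 stood at 0.04 and UTP20 at -0.059, and neither passed. RRP5 and UTP20 also lost the call if wild type replicate 2 at 30 °C or replicate 1 at 37 °C was left out. UTP25 gave 214 and 213 CPM at 30 °C and 259 and 259 CPM at 37 °C in wild type, against 203 and 181 CPM and 164 and 144 CPM in the knockout. Its call was lost when any 1 of the 4 wild type libraries was left out, with log2 fold changes of 0.28 to 0.29, while in the knockout it fell with temperature (-0.32 ± 0.08, adjusted p = 0.00386). The knockout call was lost with library size alone (-0.083) and without knockout replicate 1 at 30 °C (-0.23).

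Other members of this class were low in the knockout at 37 °C alone. UTP14, an activator of the helicase Dhr1, gave 443 and 446 CPM at 30 °C and 477 and 449 CPM at 37 °C in wild type, against 421 and 445 CPM and 270.2 and 264 CPM in the knockout. RRP36, needed for early cleavages of the precursor, gave 63.8 and 52 CPM at 30 °C and 61.8 and 60.8 CPM at 37 °C in wild type, against 53.4 and 60 CPM and 37.3 and 32.6 CPM in the knockout. Neither differed past the threshold between wild type groups or between genotypes at 30 °C, and both were lowest in the knockout at 37 °C. Their interactions were -0.76 ± 0.09, adjusted p = 8.19e-05 for UTP14 and -0.79 ± 0.17, adjusted p = 0.00361 for RRP36, the largest after UTP18. NOP14 was likewise lowest in the knockout at 37 °C, with an interaction of -0.64 ± 0.10, adjusted p = 0.00059.

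UTP11 had the largest fall of the class with temperature in the knockout (-0.71 ± 0.10, adjusted p = 6.65e-05). It gave 129 and 138 CPM at 30 °C and 107 and 101 CPM at 37 °C in wild type, against 124 and 137 CPM and 89 and 71 CPM in the knockout. It also fell in wild type (-0.36 ± 0.10, adjusted p = 0.0148), a call lost if wild type replicate 2 at 30 °C or either wild type library at 37 °C was left out, and with library size alone. UTP11, UTP23 and NOP6 were the 3 of the 16 that fell in wild type, a share near the 17.1% of all genes. The call of NOP6 was lost when any 1 of the 4 wild type libraries was left out, and with library size alone, DESeq2 or the length trend removed. Over the 16 genes, 4 fell in the knockout at 30 °C and 14 at 37 °C, where the median was -0.58. The 2 that did not pass at 37 °C were UTP30 (-0.18 ± 0.09, adjusted p = 0.105) and NOP19 (0.19 ± 0.11, adjusted p = 0.161). With temperature 11 of 16 fell in the knockout, and the interaction passed in 8, NOP6 losing its call in 6 of 17 other settings. The knockout call of RRP3 with temperature (-0.18) was lost in 6 of 14 other settings, among them DESeq2 and library size alone (0.053). Those of RRP12 (-0.17) and NOP9 (-0.16) were lost with library size alone.

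Large subunit factors are 18 genes for proteins of the nucleolar and nuclear precursors of the large subunit. In this class, 17 of 18 fell in the knockout with temperature and 17 of 18 in the knockout against wild type at 37 °C, with medians of -0.51 and -0.56. NOP15 (-0.15 ± 0.09, adjusted p = 0.151) and RRP17 (-0.14 ± 0.08, adjusted p = 0.139) were the exceptions. NOP7 (YGR103W, chromosome VII, 695417 to 697234, plus strand), which acts in a complex with Erb1 and Ytm1, was the most abundant. It gave 761 and 739 CPM at 30 °C and 546 and 534 CPM at 37 °C in wild type, against 558 and 581 CPM and 313 and 317 CPM in the knockout. The 4 groups did not overlap, and the order from high to low was wild type then knockout at 30 °C, followed by wild type then knockout at 37 °C. NOP7 was lower at 37 than at 30 °C in wild type (-0.47 ± 0.06, adjusted p = 8.64e-05) and more so in the knockout (-0.85 ± 0.06, adjusted p = 2.19e-07), and the interaction passed (-0.38 ± 0.09, adjusted p = 0.00537).

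RRP1, needed for processing of the large subunit precursor, gave 161 and 164 CPM at 30 °C and 120.1 and 132 CPM at 37 °C in wild type, against 139.8 and 137 CPM and 83.3 and 68.8 CPM in the knockout. It fell in wild type (-0.37 ± 0.09, adjusted p = 0.00617, lost without wild type replicate 1 at 37 °C) and in the knockout (-0.86 ± 0.09, adjusted p = 4.94e-06), and the genotypes differed at 37 °C (-0.73 ± 0.09, adjusted p = 2.43e-05). NOC2, which pairs with other NOC proteins on large subunit precursors, gave 426 and 435 CPM at 30 °C and 336 and 355 CPM at 37 °C in wild type, against 266 and 249 CPM and 199 and 191 CPM in the knockout. The knockout was below wild type at 30 °C (-0.74 ± 0.07, adjusted p = 7.47e-06) and at 37 °C (-0.82 ± 0.07, adjusted p = 6.85e-07). Its interaction did not pass (-0.08 ± 0.09, adjusted p = 0.53).

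In wild type 9 of the 18 fell with temperature and 0 rose, where 17.1% of all genes fell and 15.7% rose. At an unadjusted p under 0.05, 10 were lower and 0 higher, and DESeq2 and limma-voom called 6 and 8 lower with 0 higher. Most of these calls were not stable. Of 14 other settings, NOP4 lost its call in 11, NOC3 in 6, RRP8 in 5, NOP13 and NOP16 in 4 each, RRP17 in 2 and RRP1 in 1. At 30 °C, 7 of 18 were lower in the knockout, among them NOP15 (-0.54) and NOP53, an adaptor that brings in the exosome (-0.50). The interaction passed in 12 of 18. RRP14 had the lowest value of these (-0.69 ± 0.12, adjusted p = 0.00137), followed by RRP15 (-0.60 ± 0.14, adjusted p = 0.00668) and NOP8 (-0.59 ± 0.11, adjusted p = 0.00152), none of which differed between genotypes past the threshold at 30 °C. NOP2 and RRP8, the rRNA base methyltransferases, stood at -0.46 and -0.68 in the knockout against wild type at 37 °C, and RPF2, which helps to dock the 5S rRNA particle, at -0.55.

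**Figure D3:**
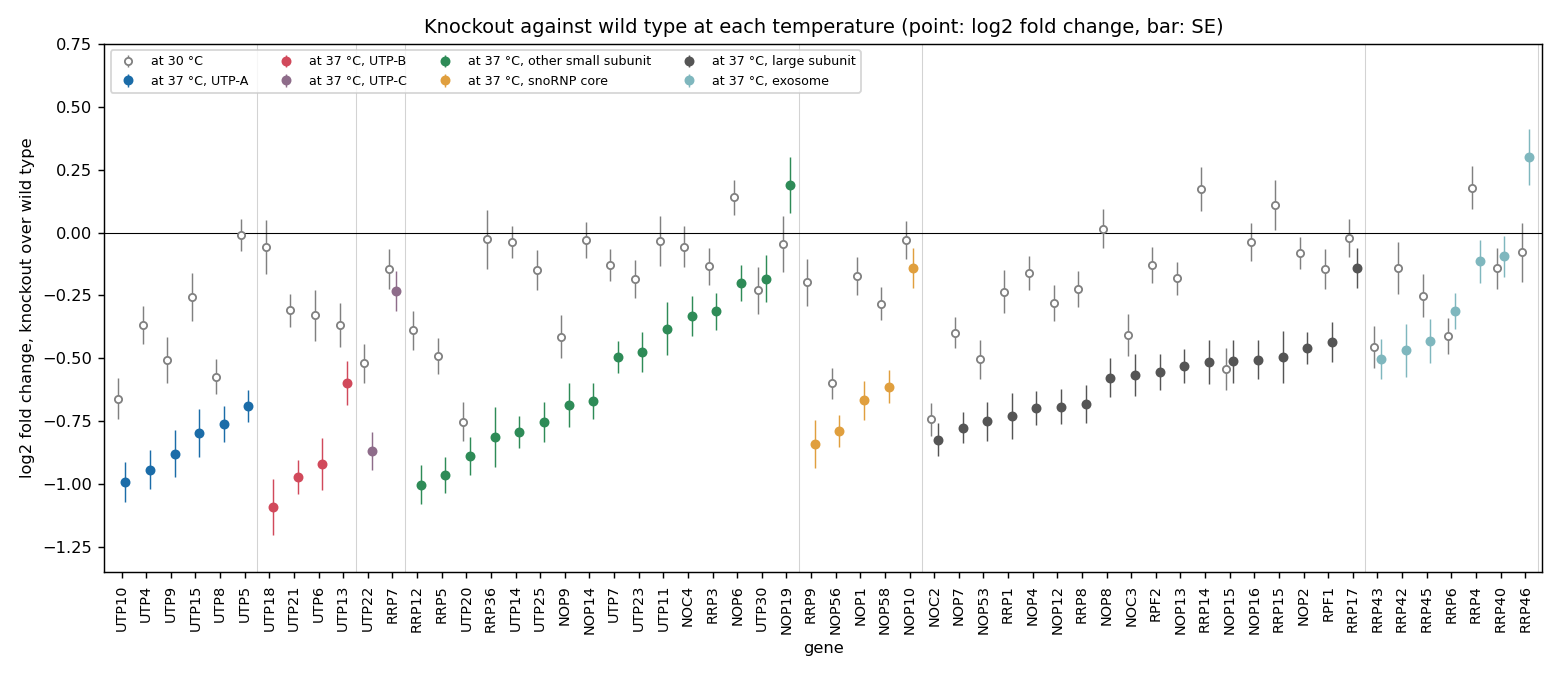
Log2 fold change of the knockout over wild type at 30 °C (open circles) and at 37 °C (filled, coloured by role class) for each of the 58 genes, with the standard error as bars. At 37 °C values run from -1.09 (UTP18) to 0.30 (RRP46), and 51 of 58 passed as lower.

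The exosome class, RRP4, RRP40, RRP42, RRP43, RRP45, RRP46 and the nuclear exonuclease RRP6, had the class median nearest to 0 at 37 °C between genotypes. RRP6 gave 207 and 223 CPM at 30 °C and 205 and 209 CPM at 37 °C in wild type, against 169.6 and 154 CPM and 167 and 166 CPM in the knockout. It was lower in the knockout at 30 °C (-0.41 ± 0.07, adjusted p = 0.00123) and 37 °C (-0.31 ± 0.07, adjusted p = 0.00229) and with temperature it did not pass in wild type (-0.06) or in the knockout (0.04). RRP45, a ring subunit, gave 117 and 125 CPM at 30 °C and 101 and 105 CPM at 37 °C in wild type, against 101 and 102 CPM and 82.2 and 70.5 CPM in the knockout. It had the largest fall of the class in the knockout with temperature (-0.41 ± 0.09, adjusted p = 0.00132), a call lost with library size alone.

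RRP46, a ring subunit, was the only member that passed as higher in the knockout. It gave 65.1 and 71 CPM at 30 °C and 60.8 and 65.7 CPM at 37 °C in wild type, against 61.8 and 67.2 CPM and 68.6 and 86.7 CPM in the knockout. Knockout replicate 2 at 37 °C was the highest of the 8 libraries, and the other 7 lay between 60.8 and 71.0 CPM. The difference at 37 °C (0.30 ± 0.11, adjusted p = 0.0348) was 0.10 without that library and did not pass then. It was also lost under DESeq2, in a fit of the 4 libraries alone, without either wild type library at 37 °C and with the length trend removed.

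Of the 7 exosome genes, 3 fell in the knockout at 30 °C and 4 at 37 °C, with medians of -0.14 and -0.31. Over all genes 15% and 29.2% fell in these comparisons. The call of RRP45 at 30 °C was lost when any 1 of the 4 libraries compared was left out and under DESeq2. With temperature 1 fell in wild type, RRP40, a share (14.3%) near the 17.1% of all genes. In the knockout 4 fell, against 28.2% of all genes. The RRP40 calls with temperature were lost when any 1 of the 4 libraries compared was left out, and in the knockout its value was 0.03 with library size alone. The interaction passed in 0 of 7, where 17.2% of all genes passed as lower and 16.4% as higher. At an unadjusted p under 0.05 there were 2 lower and 1 higher, and DESeq2 and limma-voom called 0 in either direction. With the length trend removed the interactions of RRP42 (-0.42) and RRP4 (-0.35) passed as lower. Whether the exosome class differs from the other classes was not tested.

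**Figure D4:**
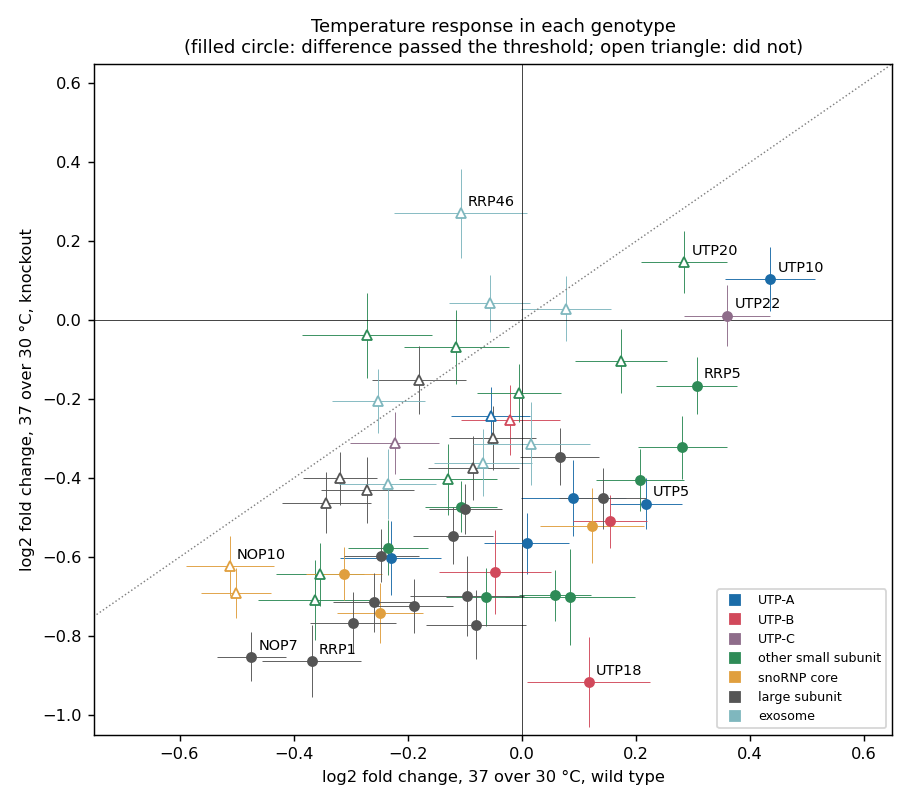
Log2 fold change at 37 over 30 °C in wild type (x axis) and in the knockout (y axis) for each of the 58 genes, with standard errors as bars and colours by role class. Filled circles are the 32 genes whose responses differed past the threshold, open triangles the other 26, and the dotted line marks equal responses, with 52 genes below it.

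Assembly factors with other names were also mostly lower in the knockout at 37 °C. Of 91 further factors listed, 90 had a row and were tested. In the knockout against wild type at 37 °C, 86 fell and 0 rose (median -0.58), where 29.2% of all genes fell and 30.5% rose. At an unadjusted p under 0.05, 86 were lower and 0 higher there. At 30 °C, 30 fell and 0 rose (median -0.16), against 15% and 14.6% of all genes, with 45 and 0 at an unadjusted p. With temperature 18 fell and 3 rose in wild type (median -0.04). The share that fell, 20%, was near the 17.1% of all genes, while 3.33% rose against 15.7% of all genes. In the knockout 75 fell and 0 rose (median -0.48), against 28.2% and 30.9% of all genes. The interaction passed in 61, all lower (median -0.39), against 17.2% lower and 16.4% higher over all genes. In wild type with temperature DESeq2 called 1 of these factors higher and limma-voom 3. In the other 4 comparisons both called 0 higher.

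BFR2, a processome factor, showed the largest fall of that list in the knockout with temperature (-1.08 ± 0.11, adjusted p = 4.69e-06) and against wild type at 37 °C (-1.13 ± 0.11, adjusted p = 3.64e-06). TSR2, a chaperone of a small subunit protein, followed in the former (-1.02 ± 0.11, adjusted p = 4.49e-06), then SDA1, a large subunit factor (-0.97 ± 0.08, adjusted p = 4.17e-07). At 30 °C the largest were CIC1 (-0.86 ± 0.09, adjusted p = 3.05e-05), BRX1 (-0.76 ± 0.07, adjusted p = 1.08e-05) and RLP7 (-0.74 ± 0.06, adjusted p = 7.45e-06), all of large subunit precursors. GAR1, a partner of NOP10 in box H/ACA particles, fell in wild type at 37 °C (-0.40 ± 0.07, adjusted p = 0.000809), as did LRP1, a partner of RRP6 (-0.51 ± 0.09, adjusted p = 0.000742). DBP6, an RNA helicase gene of large subunit assembly, rose there (0.33 ± 0.07, adjusted p = 0.00272).

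Cytosolic ribosomal protein genes had another order of groups. Of 138, 127 fell and 4 rose with temperature in wild type (median -0.55), where 17.1% of all genes fell and 15.7% rose. In the knockout 133 fell and 0 rose (median -0.87), against 28.2% and 30.9%. Between genotypes 8 fell and 6 rose at 30 °C (median 0.006). These shares, 5.8% and 4.35%, were below the 15% and 14.6% of all genes. At 37 °C 119 fell and 0 rose (median -0.32), against 29.2% and 30.5%. In the same comparisons the members had medians of -0.09, -0.46, -0.18 and -0.61.

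Transcription regulators of these genes were read from a list of 9. DOT6, a repressor that binds PAC, rose with temperature in both genotypes, more in the knockout (1.16 ± 0.08, adjusted p = 1.85e-07) than in wild type (0.36 ± 0.08, adjusted p = 0.00431), and the interaction passed (0.80 ± 0.12, adjusted p = 0.000298). In wild type its mean went from 449 ± 13.9 to 577 ± 51.3 CPM, and in the knockout from 285 ± 17.7 to 638 ± 50 CPM (SD, n = 2). At 30 °C it was lower in the knockout (-0.66 ± 0.08, adjusted p = 0.000148), and at 37 °C the genotypes did not differ past the threshold (0.15 ± 0.08, adjusted p = 0.135). Leaving out wild type replicate 1 at 37 °C ended the call of the wild type rise of DOT6. TOD6, the other PAC-binding repressor, went the other way in the knockout (-0.27 ± 0.07, adjusted p = 0.00524, lost with library size alone) and was lower than wild type at 37 °C (-0.47 ± 0.07, adjusted p = 8.2e-05).

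STB3, which binds RRPE, rose in the knockout with temperature (0.33 ± 0.11, adjusted p = 0.0221), a call lost under DESeq2 and without either knockout replicate at 30 °C or replicate 2 at 37 °C. CRF1, a corepressor at ribosomal protein genes and the least abundant of the list, rose with temperature in both genotypes. Its log2 fold change was 0.94 in wild type, which passed. In the knockout it rose from 5.1 ± 0.777 to 23.5 ± 4.48 CPM (2.20 ± 0.22, adjusted p = 2.58e-06), and the interaction passed (1.26). IFH1, the coactivator of ribosomal protein genes, rose in wild type (0.49 ± 0.06, adjusted p = 8.4e-05) and was lower in the knockout than in wild type at 37 °C (-0.67 ± 0.06, adjusted p = 1.99e-06). Its DNA-binding partner FHL1 was lower there as well (-0.61 ± 0.08, adjusted p = 2.41e-05) and fell in the knockout with temperature (-0.54 ± 0.08, adjusted p = 6.71e-05).

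SFP1, an activator of both gene groups, was lower in the knockout at 30 °C (-0.31 ± 0.08, adjusted p = 0.00828) and 37 °C (-0.24 ± 0.07, adjusted p = 0.0123), and each of these calls was lost in 2 of 14 other settings. SCH9, a kinase that carries nutrient signals to ribosome synthesis, was lower at 37 °C (-0.37 ± 0.06, adjusted p = 0.000291). HMO1, a protein of rDNA and ribosomal protein promoters, fell in wild type with temperature (-0.34 ± 0.08, adjusted p = 0.00415) and was lower in the knockout at 30 °C (-0.33 ± 0.08, adjusted p = 0.00584), both lost without wild type replicate 2 at 30 °C. Whether the regulators' levels bear on those of the members was not tested.

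Members with both promoter motifs had the lowest median in the knockout against wild type at 37 °C, -0.67 over 37 genes. It was -0.57 over the 11 with PAC alone, -0.47 over the 7 with RRPE alone and -0.43 over the 3 with neither, which ranged from -0.87 (UTP22) to 0.30 (RRP46). Over all genes tested with a window, members included, the same classes had medians of -0.45 (331 genes), -0.01 (718), -0.13 (555) and 0.07 (3926). With temperature in the knockout the members' medians were -0.51, -0.47, -0.31 and 0.01 in that order. The classes of members overlap widely in range, and their differences were not tested.

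Coding length moved with the change. Members ran from 177 bases (NOP10) to 7482 bases (UTP20), and none has an intron. Across the 58 members, Spearman's correlation of length with log2 fold change was 0.58 in wild type with temperature, against 0.24 over 5534 genes with a coding length. It was -0.49 in the knockout against wild type at 30 °C (-0.13 over all genes) and -0.71 at 37 °C (-0.15 over all genes), and 0.14 in the knockout with temperature. These are descriptions across genes that share the same libraries. In the knockout against wild type at 37 °C, 25 of 25 members of at least 1659 bases fell (median -0.78), as did 14 of 15 members of 921 to 1656 bases (median -0.61) and 12 of 18 shorter ones (median -0.41). Over all genes these length classes, of near-equal size, had medians of -0.11, 0.07 and 0.08. With a smooth length trend removed from each library, a setting chosen after seeing the data, 54 members fell and 0 rose at 37 °C, 28 fell and 0 rose at 30 °C, and in wild type 14 fell and 2 rose with temperature. The share of the change that goes with length was not otherwise tested.

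**Figure D5:**
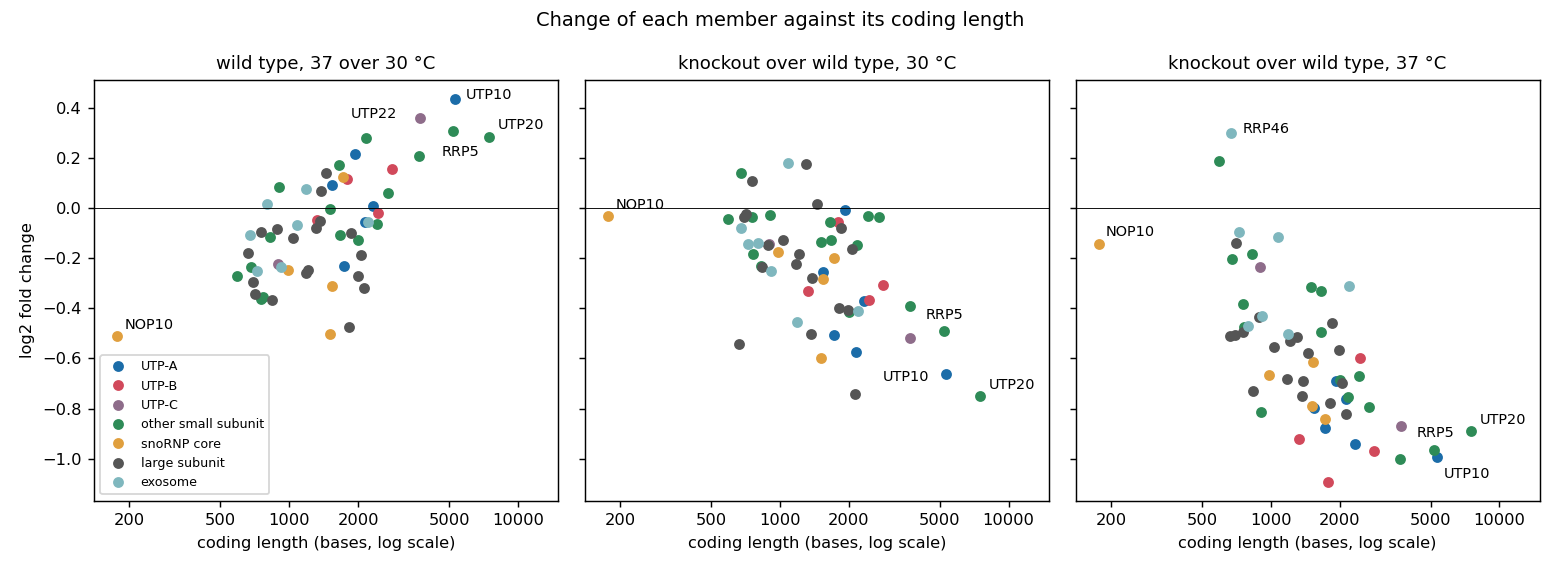
Log2 fold change of each of the 58 members against its coding length (bases, log scale) in wild type at 37 over 30 °C, and in the knockout over wild type at 30 and 37 °C, coloured by role class. The longest members, UTP10, UTP20 and RRP5, lie among the highest in wild type and among the lowest in the knockout, and NOP10, the shortest, has the lowest value in wild type.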

How the data were processed

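The deposited values were gene counts of mRNA-seq libraries, 2 in each of 4 groups, whole numbers with no normalization. STAR and HTSeq, with builds R64 and sacCer3, are named in the submitters' processing notes, and RNA was extracted with Trizol and made into libraries with a Kapa mRNA kit per the labels' protocols. The sources used here do not give tool versions, the strand setting or the treatment of multi-mapping reads. The 684 rows not named by the annotation held 0.164% of counts and stayed in the table, and 224 rows were at 0 in all libraries. The series' genome sequencing was not used here.

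Counts were filtered with filterByExpr (minimum count 10, minimum total 15), leaving 5667 genes, scaled by TMM and tested with edgeR 4.0.16 (R 4.3.3, limma 3.58.1) by the quasi-likelihood F test in 1 fit of all 8 libraries, with no covariate. Benjamini-Hochberg adjusted p-values cover all genes tested, and the threshold was 0.05. The standard error is the log2 fold change over the square root of F. The fit left 4 residual and, at the median, 8.65 prior degrees of freedom, and the common BCV, the biological spread between replicates, was 6.19%. Library totals of 4734266 to 5588983 put 3 counts, the limit that a count of 0 allows, at 0.537 to 0.634 CPM, and such limits cover counting error only. The fit across all genes was also run on simulated data. No outcome of that run is given here, so it lends no support to the calls. That holds above all for comparisons that use the knockout group whose replicates differed most. Motifs were searched in the RefSeq R64 genome, and blastn 2.17.0 found 0 members with a near-identical copy (95% identity over 50% of the length). No member is overlapped by another annotated gene.

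Alternatives were DESeq2 1.42.0 with its own size factors, limma-voom, its size factors in edgeR, library size alone, TMM factors from genes other than those of ribosomal proteins, no filter, a minimum of 5 CPM in 2 libraries, a replicate block, the 4 libraries of a comparison alone, leaving out each library and, chosen after seeing the data, a length trend as an offset. Named members are, in each role class, the most abundant one and the one that changed most in the knockout with temperature, the 3 largest changes each way in each comparison (mean of at least 10 CPM), those called against the majority, and the regulators, with other genes added as exceptions to a count. The members and lists were chosen with earlier results of these data known.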

Additional observations from a re-analysis of the deposited data

Results flagged for a closer look

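The temperature response of 32 members differed between genotypes by a test of the difference itself, the interaction in edgeR's quasi-likelihood fit with Benjamini-Hochberg adjustment. Values are the log2 response of the knockout minus that of wild type, from 2 libraries in each of 4 groups, and all 32 were more negative in the knockout.
Among small subunit factors, UTP18 stood at -1.03, RRP36 at -0.79, UTP14 at -0.76, UTP5 at -0.68, UTP21 at -0.66 and NOP14 at -0.64. RRP12 stood at -0.61, UTP25 at -0.60, UTP6 at -0.59, UTP4 at -0.57, UTP15 at -0.54, RRP5 at -0.47, UTP9 and UTP7 at -0.37, UTP22 at -0.35, NOP6 at -0.34 and UTP10 at -0.33. Of 17 other settings, UTP9 lost its call in 9, UTP10 in 8, NOP6 in 6, UTP22 in 4 and UTP7 and UTP15 in 1 each.
Among large subunit factors, RRP14 stood at -0.69, RRP15 at -0.60, NOP8 at -0.59, NOP4 at -0.54, RRP1 at -0.50, NOP16 at -0.47, RRP8 at -0.46 and RPF2 at -0.43. NOP12 stood at -0.41, NOP2 and NOP7 at -0.38 and NOP13 at -0.35. NOP13 lost its call in 2 of those settings and NOP12 in 1.
Of the snoRNP core genes, RRP9 stood at -0.64, NOP1 at -0.49 and NOP58 at -0.33, the last losing its call in 4 settings.
The knockout libraries at 37 °C, on which these differences draw, lay apart from the other 6 on component 1 of all genes. Without replicate 1 of that group 44 members passed as lower and 1 as higher in the interaction, and without replicate 2 it was 30 and 0.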

How the results depend on the processing

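Of 695 pairs of a result and another setting, 624 were labelled the same. A count was the same if equal or within 1.5-fold, and a member median if within 0.035, the spread between replicates. A motif share was the same inside its interval, and a named gene if it kept its direction and side of the threshold. Only named genes could be labelled reversed, and 1 was, UTP20 in wild type with the length trend removed (-0.059, against 0.29). Among called members outside those pairs, RRP3 (0.053, against -0.18) and RRP40 (0.034, against -0.20) also changed sign in the knockout with temperature under library size alone, and neither passed there. Calls of members that held in every setting were 6 of 24 in wild type with temperature, 31 of 47 in the knockout, 18 of 24 between genotypes at 30 °C, 47 of 52 at 37 °C and 23 of 32 for the interaction. With library size alone, 7 members were lower and 11 higher in wild type, 31 and 6 in the knockout with temperature, 2 were higher between genotypes at 37 °C and 1 in the interaction. That setting moved the median of all genes by 0.13, 0.24, 0.01, 0.13 and 0.11 in the 5 comparisons in this order, and the share of higher calls over all genes from 48 to 71.5%, 52.3 to 76.9%, 49.3 to 52.7%, 51.1 to 66% and 48.9 to 66.5%. With the length trend removed 2 members were higher in wild type, 1 in the knockout with temperature and 0 at 37 °C. Members higher in the knockout with temperature were also 1 with a minimum of 5 CPM and with the replicate block, and those at 37 °C were 0 under DESeq2 and in the 4 libraries alone. DESeq2 called 1075 genes between genotypes at 30 °C, against 1680. The cause was not tested. Leaving out each library in turn gave 6 to 11 members lower and 1 to 5 higher in wild type with 1044 to 1263 genes called. There were 6 lower without wild type replicate 1 at 37 °C, 9 without replicate 2 at either temperature and 11 without replicate 1 at 30 °C, and 4, 1, 2 and 5 higher without 30 °C replicates 1 and 2 and 37 °C replicates 1 and 2. At 30 °C between genotypes it gave 972 to 1157 genes called, and members higher were 0 to 1 in each of the other 4 comparisons. Deviations of replicate 1 from its group mean, across genes, correlated between groups at -0.11 to 0.13. With 2 libraries per group these values cannot settle whether same-numbered libraries are paired. The replicate block gave 17 members lower and 7 higher in wild type, 47 and 1 in the knockout, 25 and 0 at 30 °C, 51 and 1 at 37 °C and 33 and 1 for the interaction. Each group holds 2 libraries, and the smallest count of a member was 159.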

Other observations

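Of the 58 members, 6 (10.3%) have a gene of the same families or of the further assembly factors as a direct neighbour, against 5.15% of 5534 genes tested. The pairs are RRP3 and SSF1, which are divergent, RPF1 and GAR1, RRP15 and NOC4, both convergent, and UTP9 and RIX1, RSA3 and UTP13, both in tandem. A longer spelling of PAC, CGATGAG, was found upstream of 58.6% of members and of 7.41% of all windows. A variant of RRPE, GAAAATTT, was found upstream of 50% of members and 9.10% of all windows.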
